A study of Mus musculus with 1536 samples.

Results

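The genes that make, package, recapture and break down serotonin were followed across single serotonin neurons of the mouse raphe. There were 8 of them, taken by name from the 53263 genes listed in the deposited table: Tph2 and Ddc (synthesis), Slc18a2 and Slc18a1 (vesicular packaging), Slc6a4 and Slc22a3 (uptake from outside the cell) and Maoa and Maob (breakdown). All 8 had at least 1 read in at least 3 cells, as did 25522 genes in all. They were listed by name and role, and no threshold on a measured value was applied. The cells came from C57BL/6J mice 40 to 45 days old that carried Sert-Cre and Ai14 (the labels name the genotype as a cross of Sert-tdTomato-Cre with Ai14), in both dissections alike. Cre under the control of Sert, another name of Slc6a4, switches on the red protein tdTomato from the Ai14 allele and leaves it on, so that the protein marks cells that have expressed Sert at any time. Single tdTomato-positive cells were sorted into plates, and each was made into a Smart-seq2 library, a method that reads complementary DNA along its whole length. The Principal DR dissection took the principal dorsal raphe, and the All DR dissection took the dorsal raphe as a whole, to which the paper adds the median raphe. The table held 290 Principal DR cells on 5 plates and 709 All DR cells on 11 plates, 999 in all, of 1536 labelled cells (480 and 1056). Each of the 999 had reads of Tph2, so that cells without it, if any were sorted, are not in what follows, and the presence of Tph2 and Slc6a4 in part reflects how cells entered the table. The paper used mice of both sexes, and the mix of sexes on each plate is unknown, also for the X-linked Maoa and Maob. Neither the animal nor the sex of a cell is given in the labels, so each dissection counts as 1 sample. The spread is therefore shown over plates, and cells were given no test.

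Serotonin is made from tryptophan in a pair of steps. Tryptophan hydroxylase 2 (Tph2), the rate-limiting enzyme in the brain, adds a hydroxyl group, and aromatic L-amino acid decarboxylase (Ddc) removes the carboxyl group, a step that dopamine neurons share. The vesicular monoamine transporter VMAT2 (Slc18a2) loads the product into synaptic vesicles, a role that VMAT1 (Slc18a1) fills mainly in endocrine cells. After release, the serotonin transporter (Slc6a4) returns it to the neuron with high affinity, while the organic cation transporter 3 (Slc22a3) carries monoamines with low affinity and high capacity. Monoamine oxidases A and B (Maoa and Maob) of the outer mitochondrial membrane break it down. The A form is known for its higher affinity for serotonin, and the B form is the one long described in serotonin neurons and in astrocytes.

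The start regions of these genes were read for letters of the kind bound by ETS-family transcription factors, to which Fev, a regulator of serotonin neurons, belongs, since the levels of several of the genes moved together from cell to cell. RefSeq start windows on GRCm38.p6, each of 250 bases before and 50 after an annotated start, were found for 6 of the 8 genes (Tph2, Ddc, Slc6a4, Slc18a2, Slc22a3 and Maoa). They were searched on both strands for CCGGAA and CAGGAA, which do not overlap each other. Among 32851 such windows of all genes, 14.9% held CCGGAA, 30.6% held CAGGAA and 41.4% held either. The 4 windows below are the 3 of the genes that correlated most with one another and had a single window, and that of Slc22a3, which had the most matches. Matches are in capitals, and those on the opposite strand read TTCCGG or TTCCTG. The windows lie at chr10:115184973-115185272 on the minus strand (Tph2), chr11:76998347-76998646 on the plus strand (Slc6a4), chr19:59260628-59260927 on the plus strand (Slc18a2) and chr17:12507655-12507954 on the minus strand (Slc22a3).
Tph2: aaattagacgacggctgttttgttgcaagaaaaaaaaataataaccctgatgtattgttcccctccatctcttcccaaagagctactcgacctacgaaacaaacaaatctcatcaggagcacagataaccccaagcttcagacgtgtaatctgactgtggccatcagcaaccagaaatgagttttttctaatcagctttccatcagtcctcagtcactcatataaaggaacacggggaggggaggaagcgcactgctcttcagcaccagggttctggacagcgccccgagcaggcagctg
Slc6a4: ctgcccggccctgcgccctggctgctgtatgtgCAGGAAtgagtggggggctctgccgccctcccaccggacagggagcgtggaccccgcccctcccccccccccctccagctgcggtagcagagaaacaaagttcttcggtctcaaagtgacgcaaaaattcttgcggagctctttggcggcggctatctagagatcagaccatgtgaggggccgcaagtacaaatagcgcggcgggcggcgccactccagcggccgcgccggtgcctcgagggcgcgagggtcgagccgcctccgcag
Slc18a2: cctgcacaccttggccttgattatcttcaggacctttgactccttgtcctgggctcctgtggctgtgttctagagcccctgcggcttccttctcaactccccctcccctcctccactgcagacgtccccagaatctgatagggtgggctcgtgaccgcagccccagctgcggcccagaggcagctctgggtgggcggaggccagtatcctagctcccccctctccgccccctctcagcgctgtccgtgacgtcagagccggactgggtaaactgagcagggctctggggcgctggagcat
Slc22a3: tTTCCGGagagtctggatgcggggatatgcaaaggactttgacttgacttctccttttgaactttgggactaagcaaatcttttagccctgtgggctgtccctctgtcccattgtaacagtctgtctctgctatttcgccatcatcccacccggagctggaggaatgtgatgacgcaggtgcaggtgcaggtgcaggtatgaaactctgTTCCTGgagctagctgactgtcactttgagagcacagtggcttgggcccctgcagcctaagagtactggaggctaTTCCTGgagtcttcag
The Slc6a4 window held 1 match, which began at base 34 of the window, and the Slc22a3 window held 3, which began at bases 2, 210 and 285. No match was found in the windows of Tph2, Slc18a2 and Maoa or in the 2 windows of Ddc. A match says only that the letters are there. The lack of one says only that CCGGAA and CAGGAA are absent, since other letters of the ETS kind were not searched.

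By the GENCODE M21 annotation of GRCm38, the exons of the 8 genes, merged over transcripts, span 2.79 kb (Maob) to 5.40 kb (Slc18a1). Maoa lies on the plus strand at chrX:16619698-16687818 and Maob on the minus strand at chrX:16709282-16817366, so that their 3′ ends face each other across 21463 bases. Ddc lies at chr11:11814101-11898144 and Slc22a3 at chr17:12418960-12507704, both on the minus strand. Reads were counted without regard to strand. The 111 exonic bases that Slc18a2 shares with Gm29261 and the 420 that Slc22a3 shares with Plg, both on opposite strands, could therefore hold reads of either gene.

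The depth was 96834 to 2780443 reads on genes per cell, with a median of 755926 in Principal DR and 869546 in All DR cells. Markers of serotonin neurons were present throughout: the summed level of Tph2, Slc6a4, Slc18a2, Fev, Ddc, Gata3, Gata2 and Lmx1b averaged 16498 to 20858 CPM (reads of a gene scaled to the same total of reads on genes in every cell) on Principal DR plates and 18358 to 21957 on All DR plates. Of the marker lists of other cells that a sort could hold, that of oligodendrocytes had the highest sum, with 7 of 7 markers detected. Its plate means were 71.3 to 190.3 CPM in Principal DR and 119.0 to 1664 CPM in All DR. Mbp and Cnp were its highest genes, at means of 115.1 and 76.6 CPM, with reads in 74.5% and 96.0% of cells. Mog, Mag and Cldn11 each had a read in at most 3.0% of cells. The sum is therefore not read as oligodendrocyte material in most cells. The 7 astrocyte markers summed to 12.3 to 27.4 and 10.7 to 93.0 CPM. Markers of endothelial and mural cells (5 of 7 detected, Kdr at 0) reached 2.88 and 25.9 CPM, those of ependymal cells (2 of 4, Tmem212 at 0) 12.5 and 4.45 CPM, those of microglia (5 of 7) at most 3.40 CPM in either, and those of catecholamine neurons (2 of 4) 1.88 and 1.37 CPM. In all, 31 cells had a summed level of a glial, vascular or ependymal list over 500 CPM. Among Principal DR plates, numbers 12 and 13 had median counts of 9984 and 9980 detected genes per cell, against 8966 to 9371 on plates 25, 39 and 40, and dissection ratios that move with this split are given with and without them.

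Tph2 was the most abundant of the 8 per length of exon, and the levels of the genes spanned 4 orders of magnitude. Tph2 averaged 3337 CPM per kb of exon over the 999 cells, which was 4.02 times Slc6a4 at 829.5 CPM per kb. Ddc followed at 649.8, Slc18a2 at 572.7 and Maob at 399.4 CPM per kb. Maoa and Slc22a3 were an order of magnitude lower, at 32.4 and 23.5 CPM per kb, and Slc18a1 stood at 0.196 CPM per kb. Tph2 was above Slc6a4 in 989 of the 999 cells and on 16 of 16 plates (2.67 to 5.35 times).

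Neighbours lower in that order were less cleanly separated. Slc6a4 was above Ddc on 16 of 16 plates, while Ddc exceeded Slc6a4 in 218 cells. Exon lengths were merged over all annotated transcripts, of which Ddc has 10 and Slc6a4 4, and the transcripts used in these cells were not determined. A shorter length in use would raise a gene in this order, so that the order of neighbours depends on the annotation. Ddc was above Slc18a2 on 11 of 16 plates only, with plate ratios of 0.762 to 1.63, so that these neighbours did not differ beyond the spread of plates. Slc18a2 was above Maob on 15 of 16 plates (ratios of 0.879 to 2.84), and Maoa was above Slc22a3 on 13 of 16.

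**Figure D1:**
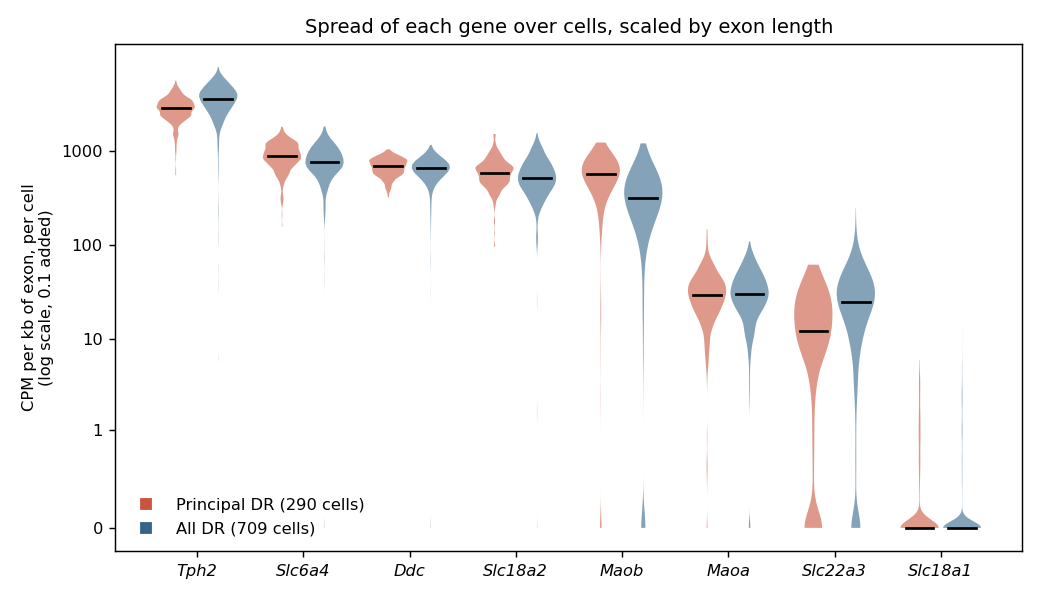
Distribution over cells of CPM per kb of exon (vertical axis, log scale with 0.1 added) for each of the 8 genes, split by dissection; the black bar is the median. Tph2 lies highest, with medians of 2832 and 3542 CPM per kb, Maob has 48 and Slc22a3 125 cells at 0, and most cells have no read of Slc18a1.

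Ddc was the steadiest of the 8 from cell to cell, and Slc22a3 the most variable of those over 100 CPM. The standard deviation over cells was 24.5% of the mean for Ddc, 35.0% for Slc6a4, 35.1% for Tph2 and 41.5% for Slc18a2. Among the 1647 genes with a mean over 100 CPM, whose median was 40.1%, only 4.86% had a lower value than Ddc. For Maoa it was 55.5%, for Maob 60.7% and for Slc22a3 89.0%, and 97.6% of those genes had a lower value than Slc22a3. The middle 90% of cells lay between 1732 and 3982 CPM for Ddc, between 1750 and 5991 CPM for Slc6a4 and between 0 and 257.5 CPM for Slc22a3.

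Plates held a small part of this spread. The share of the variance of ln(CPM+1) that lay between the 16 plates was 2.93% for Maoa, 2.95% for Slc18a1, 3.44% for Tph2, 4.74% for Ddc, 6.50% for Maob, 8.03% for Slc22a3, 8.04% for Slc18a2 and 8.30% for Slc6a4, where the median over the 8087 genes with a mean over 10 CPM was 4.63%. Within the Principal DR plates alone it was 36.4% for Ddc and 29.1% for Slc6a4, against 2.11% and 3.25% within All DR plates. Ddc averaged 3345 and 3323 CPM on plates 12 and 13 and 2466, 2542 and 2585 CPM on plates 25, 39 and 40. Slc6a4 averaged 4959 and 4412 CPM on plates 12 and 13 and 3326, 3110 and 3048 CPM on the same 3 others. Plates 12 and 13 were thus higher in both genes without overlap, and the labels give nothing that marks this split.

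Nearly every cell had reads of all 4 core genes (Tph2, Ddc, Slc6a4 and Slc18a2). Ddc had none in 3 cells, Slc6a4 in 2 and Slc18a2 in 1, and these were 3 cells in all, each from All DR. The cell on plate 48 had 120692 reads and 1760 detected genes, with 2 reads of Tph2, 1 of Slc18a2 and 133 of Slc22a3 (1102 CPM, the highest of any cell). The cell on plate 55 had 476456 reads and 3295 genes and no read of Ddc, Slc6a4, Slc18a2, Slc22a3 or Maoa, beside 340 reads of Tph2 and 650 of Maob. The cell on plate 60 lacked Ddc and Maob but had 824 reads of Slc6a4 and 606 of Slc18a2. Below 1000 CPM there were 10 cells for Tph2, 17 for Ddc, 15 for Slc6a4 and 25 for Slc18a2, and 2 cells were below it in all 4.

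Maob was abundant in most cells and without a read in some. It had a read in 951 of the 999 cells (95.2%, exact 95% interval 93.7 to 96.4), and only 1 of these had 1 to 4 reads, while the median cell had 849 reads. In 15 cells with a read it was below 50 CPM, and the 5th percentile of cells with a read was 239.8 CPM. The 48 cells without it were spread over 14 of the 16 plates. Their median depth was 775060 reads against 834849 in the other 951 cells. Their median levels were 7440 CPM of Tph2 and 3044 CPM of Slc6a4, against 9481 and 3664 CPM in cells with Maob reads, and 166.9 against 121.7 CPM of Maoa. Of the 48, 26 had reads of Slc17a8, 24 of Gad1 or Gad2, 7 of Zeb2 and 3 of Trh. Cells without Maob made up 4.01% of cells with Slc17a8 reads and 6.29% of those without. The shares were 6.92% and 3.68% for Gad1 or Gad2, 4.67% and 4.83% for Zeb2, and 2.17% and 5.23% for Trh. By dissection, 41 of the 48 were from All DR (5.78% of its cells) and 7 from Principal DR (2.41%).

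Slc22a3 was absent from more cells and was graded above 0. A read was found in 874 cells (87.5%, 85.3 to 89.5) and none in 125, 23 cells had 1 to 4 reads, and 200 of the 874 cells with a read were below 50 CPM. The cells without it had a median depth of 823648 reads against 827866, and a median of 1405 CPM of Maob against 1005 CPM.

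Slc18a1 was near the limit of detection. Of the 120 cells with a read (12.0%, 10.1 to 14.2), 57 had only 1 to 4 reads. A read was found in 18.3% of Principal DR cells (14.0 to 23.2) and in 9.45% of All DR cells (7.40 to 11.8). With every cell thinned to 250000 reads, which left out 1 Principal DR and 8 All DR cells, the shares were 13.1% (9.48 to 17.6) and 7.56% (5.71 to 9.77), and these intervals overlap narrowly. The intervals cover counting error only. Plate shares overlapped too, from 10.7% to 20.9% and from 3.33% to 15.0%.

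The comparison of dissections asked whether serotonin neurons of the principal dorsal raphe handle the transmitter with the same genes as those of the All DR dissection. By the paper, that dissection also holds the caudal dorsal raphe and the median raphe, so that a difference need not lie within the dorsal raphe. Maob was higher and Tph2 lower in Principal DR cells, without overlap of plates, and Slc22a3 was lower with overlap by 1 All DR plate. None of the 8 reached a log2 ratio of 1 in either direction on the scale of mean CPM + 1. Over all 25522 genes, 1.54% were higher and 0.901% lower by that much.

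Maob averaged 1604, 1388, 1471, 1767 and 1772 CPM on Principal DR plates 12, 13, 25, 39 and 40. On the 11 All DR plates its lowest, median and highest means were 738.6, 975.7 and 1112 CPM. The plates of the dissections did not overlap, and the Principal DR mean over cells was 1.68 times the other (1561 against 931.4 CPM, log2 ratio 0.74). Non-overlap with a higher mean was found for 2.43% of all genes, and for 5.08% of genes with a mean over 10 CPM. The summed astrocyte list, 12.3 to 27.4 CPM on Principal DR plates and 10.7 to 93.0 CPM on All DR plates, had a Spearman's rho of 0.00 with Maob over cells. Without the 31 cells over 500 CPM of other cell types the log2 ratio of Maob was 0.73. The oligodendrocyte list was over 500 CPM in 30 cells and the astrocyte list in only 2, so that this ratio says little about astrocytes. The part of astrocyte RNA in the result was not tested.

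Tph2 averaged 8425, 8672, 7402, 7727 and 7651 CPM on the same Principal DR plates. On All DR plates its lowest, median and highest means were 8913, 10186 and 11197 CPM. Again no plates overlapped, here with Principal DR the lower (8169 against 10197 CPM over cells, log2 ratio -0.32). This form of non-overlap was found for 2.54% of all genes and for 6.52% of genes over 10 CPM. With CPM rescaled by a size factor per cell, the Tph2 plates overlapped and the log2 ratio was -0.07. It was -0.39, again without overlap, once the 11 cells with a factor under 0.5 (4 of them at 0) were left out. Without Zeb2-positive cells, which were nearly all from All DR, it was -0.26 and the plates overlapped.

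Slc22a3 averaged 84.2, 91.5, 52.1, 31.1 and 39.3 CPM on Principal DR plates, against 79.1, 117.1 and 149.0 CPM as the lowest, median and highest All DR plate. Only All DR plate 55 reached into the Principal DR range, and without it the plates did not overlap. The log2 ratio over cells was -0.77 and became -1.49 without plates 12 and 13, which had the highest Slc22a3 of the 5. With size factors it was -0.10, and -0.86 without cells under 0.5. A read was found in 82.8% of Principal DR and 89.4% of All DR cells, and in 81.3% and 88.2% after thinning to 250000 reads.

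The other members overlapped between dissections. Log2 ratios were 0.18 for Slc6a4, 0.13 for Slc18a2, 0.09 for Ddc, -0.05 for Maoa and 0.36 for Slc18a1, the last from means of 1.44 and 0.905 CPM. Maoa was the closest to equal, at 132.0 and 136.5 CPM. For Ddc and Slc6a4, Principal DR plates 12 and 13 were above every All DR plate and plates 25, 39 and 40 were within the All DR range. Without plates 12 and 13 both ratios had the opposite sign, at -0.17 for Ddc and -0.19 for Slc6a4, so that no direction between dissections is given for these genes. Those of Slc18a2 and Maoa were then 0.04 and -0.15. Since each plate held a single dissection, what belongs to the dissection and what belongs to the plate cannot be told apart.

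**Figure D2:**
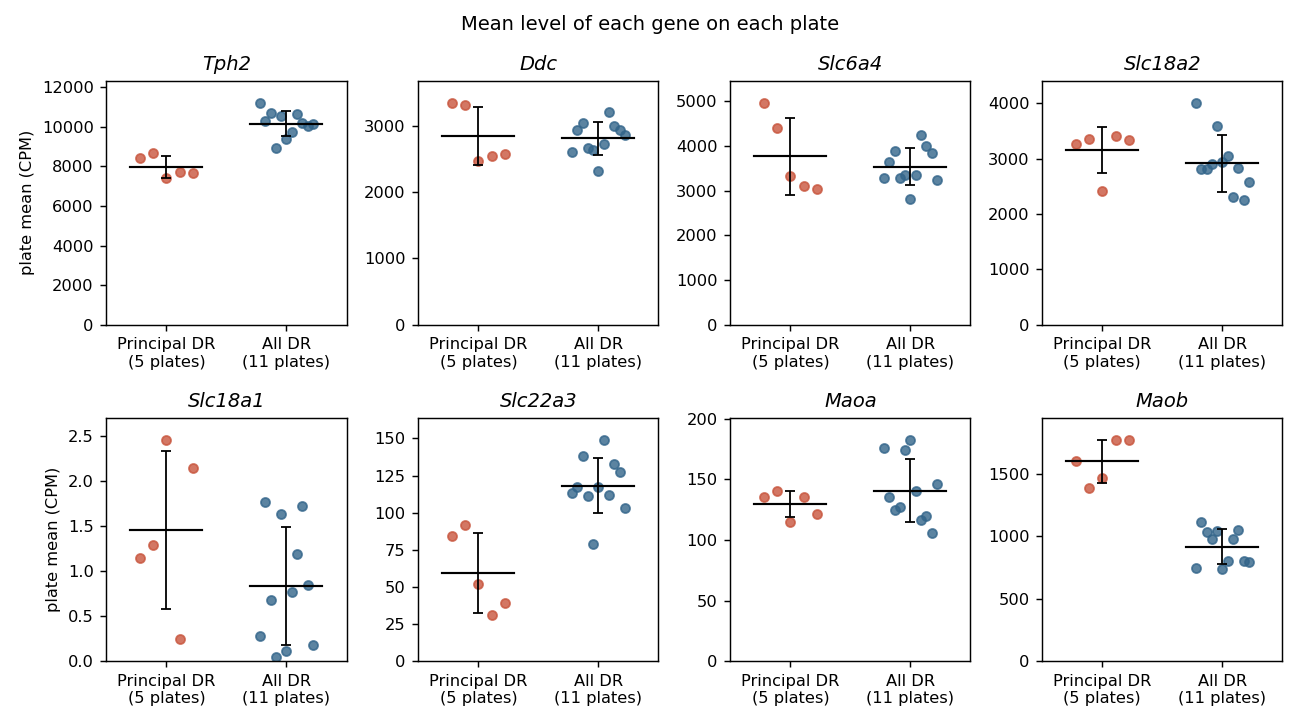
Mean CPM of each gene on each plate (points), with the mean over plates (horizontal bar) and its standard deviation over plates (error bar), for 5 Principal DR and 11 All DR plates. Points for Maob (1388 to 1772 against 738.6 to 1112 CPM) and Tph2 (7402 to 8672 against 8913 to 11197 CPM) do not overlap, and Ddc and Slc6a4 split the Principal DR plates into a higher pair and a lower 3.

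The dissections differed in their share of marker-defined cells, so that the comparison was repeated within them, a choice made after seeing the data. Cells were sorted into classes by at least 1 read of Slc17a8, which encodes the vesicular glutamate transporter VGLUT3, and of Gad1 or Gad2, which encode the enzymes of GABA synthesis (Gad-positive below). Slc17a8 alone marked 84 Principal DR and 429 All DR cells, Gad alone 136 and 75, both 47 and 89, and neither 23 and 116. Maob was higher in Principal DR cells in all 4 classes, with log2 ratios of 0.61 in cells with Slc17a8 alone (1537 against 1009 CPM), 0.85 with Gad alone (1641 against 907.9), 0.80 with both (1615 against 929.6) and 0.68 with neither (1061 against 659.8). Plates with at least 5 cells of the class did not overlap for Slc17a8 alone and for both (4 against 9 plates), as for 2.61% and 2.26% of genes over 10 CPM that were higher in the same cells, and overlapped for the other two. Slc22a3 was lower in all 4, with log2 ratios of -0.86, -0.90, -1.43 and -0.79 in the same order. Its plates did not overlap in cells with both markers, as for 1.45% of genes over 10 CPM that were lower there, and overlapped in the other 3 classes. For Tph2 the ratio was -0.36 with Slc17a8 alone, -0.40 with both and -0.45 with neither, but 0.01 with Gad alone (8388 against 8355 CPM). Tph2 plates did not overlap with Slc17a8 alone, as for 3.4% of genes over 10 CPM that were lower there, and overlapped in the other 3 classes.

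Marker-defined cells were then compared within plates, positive against negative cells of the same plate, on plates with at least 5 of each. Slc17a8-positive cells were 649 (40 of them with 1 to 4 reads of it) and Gad-positive cells 347 (11 with 1 to 4 reads). Slc22a3 was lower in Slc17a8-positive cells on 15 of 16 plates, with a median log2 ratio of -0.55, and plate 55 was the exception. Tph2 and Maob were each higher on 14 of 16 plates, with median ratios of 0.17 and 0.26, and Slc18a2 and Maoa were each lower on 13 of 16, at -0.21 and -0.18. None of the 8 went the same way on all 16 plates, as 0.29% of all genes and 0.767% of those over 10 CPM did. Median depths were 867515 and 768896 reads in Slc17a8-positive and Slc17a8-negative cells. On the 5 Principal DR plates 4 of the 8 (Ddc, Slc18a2, Slc22a3 and Maoa) were lower in Slc17a8-positive cells each time, as were 8.84% of genes over 10 CPM. On the All DR plates Ddc was higher on 6 of 11.

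For Gad-positive against Gad-negative cells no member held a direction over the 16 plates either, where 0.196% of all genes and 0.47% of those over 10 CPM did. The median log2 ratios lay between -0.16 (Slc18a1) and 0.12 (Slc22a3). On the 5 Principal DR plates, Slc6a4, Slc18a2 and Maoa were higher in Gad-positive cells each time, with median ratios of 0.20, 0.43 and 0.26. The same held for 8.84% of genes over 10 CPM, the share also given for Slc17a8. Of the 290 Principal DR cells, 84 had Slc17a8 alone and 136 Gad alone. The Slc17a8 and Gad contrasts on these plates thus largely set the same cells against each other and are not independent. On the All DR plates Slc6a4, Slc18a2 and Maoa were higher in Gad-positive cells on 6, 5 and 6 of 11, with medians of 0.01, -0.03 and 0.01. The difference between dissections in these contrasts was not tested.

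Cells with reads of Trh, the precursor of thyrotropin-releasing hormone, had more of the serotonin transporter and of Maob than other cells of their plates. There were 98 such cells in Principal DR and 40 in All DR (6 of the 138 with 1 to 4 reads), and 10 plates, 5 of each dissection, had at least 5. Slc6a4 in Trh-positive cells averaged 5481, 5017, 3836, 3224 and 3732 CPM on Principal DR plates 12, 13, 25, 39 and 40, against 4510, 4145, 3191, 3036 and 2855 CPM in the other cells. On All DR plates 55, 57, 60, 63 and 64 it averaged 4302, 4216, 5848, 5639 and 5302 CPM, against 3243, 3299, 4106, 3858 and 3736 CPM. It was thus higher on 10 of 10 plates, with a median log2 ratio of 0.37 (0.09 to 0.55).

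Maob was likewise higher in Trh-positive cells on 10 of 10 plates. It averaged 1866, 1718, 1530, 2129 and 2329 CPM against 1379, 1243, 1455, 1533 and 1615 CPM on the same Principal DR plates, and 1393, 974.5, 1162, 1596 and 1029 CPM against 1004, 790.4, 959.3, 1004 and 787.2 CPM on the All DR plates. The median log2 ratio was 0.45 (0.07 to 0.67). Of all genes, 0.987% were higher on every plate, and of those over 10 CPM 2.32%. Slc18a2 was higher on 9 of 10 plates (median 0.38, lower on plate 64), Maoa was lower on 9 of 10 (median -0.11), and without plate 64 both joined those that went one way throughout. Tph2 and Ddc had median ratios of -0.02 and 0.03. The calls for Slc6a4 and Maob were both lost when CPM were rescaled by size factors and kept once cells with a factor under 0.5 were left out. Pooled over dissections, Slc18a1 had a read in 25.4% of Trh-positive cells (18.3 to 33.5) and 9.87% of the others (7.96 to 12.1), and in 18.8% (12.7 to 26.4) and 7.63% (5.94 to 9.62) after thinning to 250000 reads. Of the 138 Trh-positive cells 98 were from Principal DR, so that these shares also hold the mix of dissections. Within Principal DR the shares were 29.6% and 12.5%, and within All DR 15.0% and 9.12%. The mean level of Slc18a1 was higher in Trh-positive cells on 6 of 10 plates.

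Zeb2 encodes a zinc-finger transcription factor, and the 150 cells with its reads (9 of them with 1 to 4; 653 exonic bases are shared with the antisense Zeb2os) were almost wholly from All DR, which held 147. The comparison therefore rests on 11 All DR plates. Slc22a3 was lower in Zeb2-positive cells on 11 of 11 plates, with a median log2 ratio of -0.41 (-1.11 to -0.05) and median plate means of 97.3 and 128.9 CPM. Slc18a1 was lower on 11 of 11 as well. Among All DR cells alone, 3.40% of Zeb2-positive cells had a read of it, against 11.0% of the others. Pooled over both dissections, the shares were 3.33% (1.09 to 7.61) and 13.5% (11.3 to 16.0), and 2.00% and 10.5% after thinning. These pooled shares count Principal DR cells almost only among the others. On 6 of the 11 All DR plates (50, 52, 56, 63, 64 and 67) none of the 7 to 12 Zeb2-positive cells had a read, so that any read in the more numerous other cells made Slc18a1 lower, and its direction over plates is not read as a difference. Of all genes 3.41% were lower on every plate, and of those over 10 CPM 6.85%. The median ratio of Slc22a3 was -0.21 among the 997 cells with at least 100000 reads and 2000 genes. Without the cells with over 500 CPM of glial, vascular or ependymal markers neither gene was lower on every plate.

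The larger ratios in Zeb2-positive cells were those of Slc6a4, Maob and Maoa, each of which went against the rest on 1 plate. Slc6a4 was lower on 10 of 11 plates (median -0.61, median plate means 2664 and 3665 CPM) and higher on plate 56. Maob was lower on 10 of 11 (median -0.58, 696.9 and 1004 CPM) and higher on plate 52, and Maoa was higher on 10 of 11 (median 0.59, 172.2 and 124.1 CPM) and lower on plate 52. Without plate 52 both oxidases kept their direction on all of the remaining plates, and without plate 56 Slc6a4 and Ddc did. Tph2 was higher on 10 of 11 (median 0.23) and Ddc lower on 10 of 11 (median -0.16). Tph2 and Slc6a4, which correlated most closely among the members, thus had opposite directions in these cells on most plates.

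**Figure D3:**
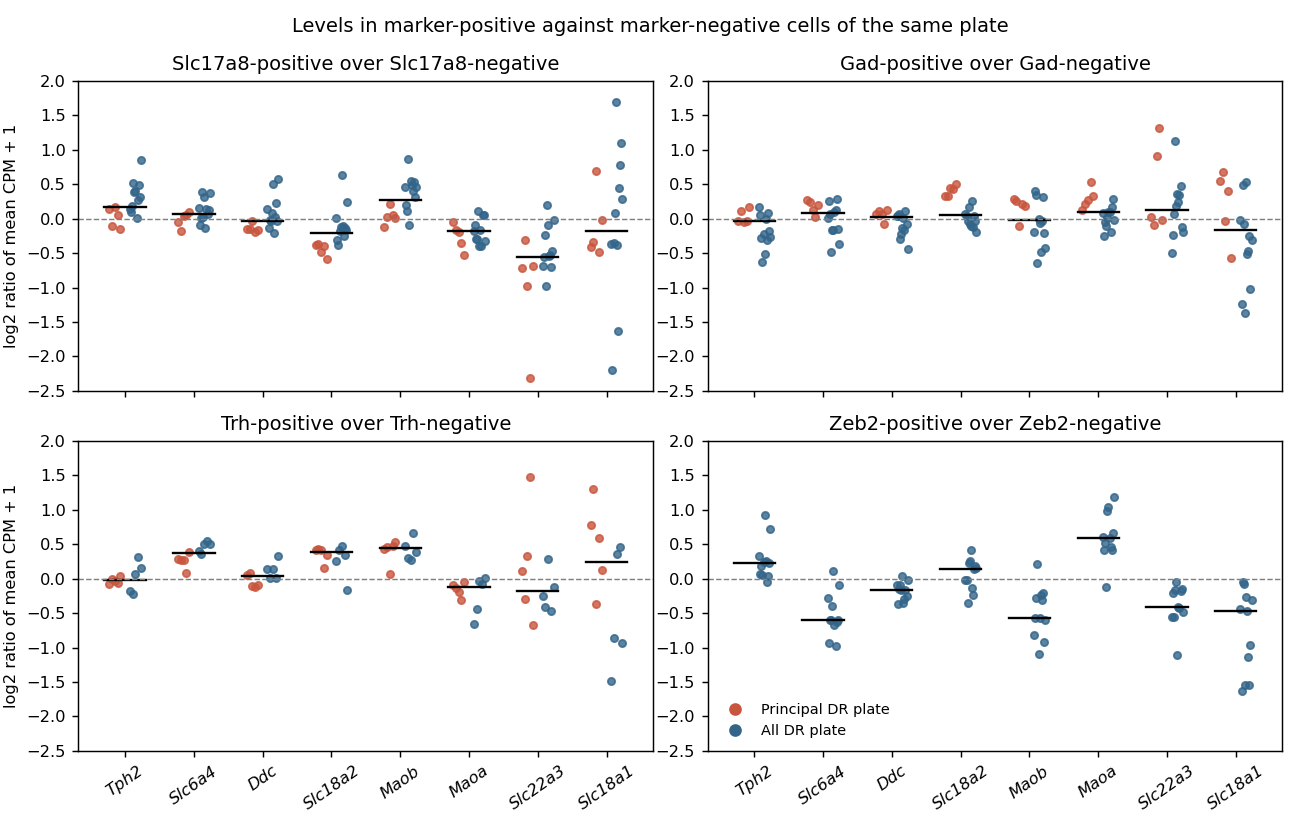
Log2 ratio of mean CPM + 1 in marker-positive over marker-negative cells of the same plate (vertical axis) for each of the 8 genes, with 1 point per plate and a black bar at the median over plates. Slc6a4 and Maob lie above 0 on 10 of 10 plates for Trh, and for Zeb2 (All DR plates only) Maoa lies mostly above 0 while Slc6a4, Maob and Slc22a3 lie mostly below it.

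The balance of the oxidases followed the same markers. Per kb of exon Maob was 12.3 times Maoa over all cells and above it on 16 of 16 plates (6.04 to 21.8 times), and Maoa was the higher in 66 cells (6.61%). The ratio was 17.7 in Principal DR and 10.2 in All DR cells, with plate ranges of 14.8 to 21.8 and 6.04 to 13.1 that did not overlap. Within plates it was higher in Trh-positive cells on 10 of 10 plates, with medians of 20.3 against 12.7. It was lower in Zeb2-positive cells on 10 of 11 plates, with medians of 5.20 against 12.6. In Slc17a8-positive cells it was higher on 14 of 16 plates (13.4 against 9.99), and in Gad-positive cells on 6 of 16.

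**Figure D4:**
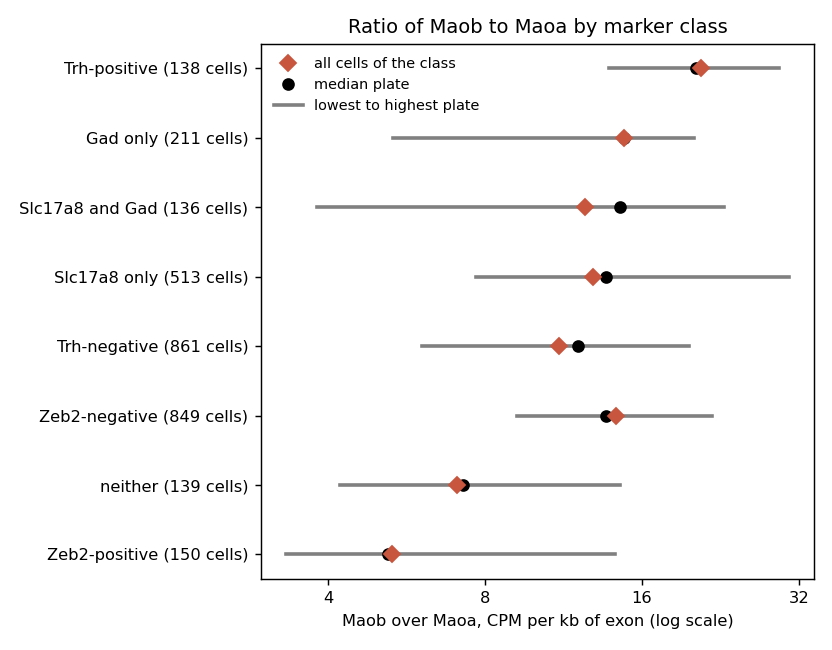
Ratio of Maob to Maoa in CPM per kb of exon (horizontal axis, log scale) by marker class, as the ratio of means over all cells of the class (diamond), the median plate (circle) and the range over plates with at least 5 cells (bar). Pooled over dissections, Trh-positive cells (98 of 138 from Principal DR) have a ratio of 20.7 and Zeb2-positive cells (147 of 150 from All DR) one of 5.30, where the dissections themselves have 17.7 and 10.2; the classes overlap one another as sets of cells.

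Levels of the 4 core genes moved together across cells of a plate. Correlations were taken over the 999 cells as Pearson's r of ln(CPM+1) after subtracting each plate's mean, and as Spearman's rho of ranks within plates, and they are given as descriptions, since cells of a plate share their depth and handling. Of the 28 pairs, 10 had an r of at least 0.3, among them all 6 pairs of core genes. Of the 8086 other genes over 10 CPM, 2.11% reached 0.3 with Tph2, 4.58% with Ddc, 7.98% with Slc6a4 and 2.87% with Slc18a2. The highest was Tph2 with Slc6a4 (r = 0.68, above 0 on 16 of 16 plates), followed by Ddc with Slc6a4 (0.67), Slc6a4 with Slc18a2 (0.62), Tph2 with Ddc (0.61), Ddc with Slc18a2 (0.54) and Tph2 with Slc18a2 (0.51).

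A few cells with low levels carried much of this. Without the 3 cells that lacked Ddc, Slc6a4 or Slc18a2, a choice made after seeing the data, r was 0.62 for Tph2 with Slc6a4 and 0.47 for Ddc with Slc6a4, but 0.35 for Slc6a4 with Slc18a2 and 0.26 for Ddc with Slc18a2, and 7 pairs reached 0.3. In ranks, which weigh such cells no more than others, rho was 0.55 for Tph2 with Slc6a4, 0.45 for Ddc with Slc6a4 and 0.30 for Tph2 with Ddc, and it was 0.20 to 0.22 for the 3 pairs with Slc18a2. The levels also went with the number of detected genes, with an r of 0.57 for Slc6a4, 0.53 for Tph2, 0.42 for Ddc and 0.28 for Slc18a2. With the logarithm of reads, a measure of depth, r was 0.31, 0.30, 0.24 and 0.12 in the same order. After a linear term in log reads and detected genes was removed over all cells, the r of Tph2 with Slc6a4 was 0.53 and the 6 core pairs lay between 0.45 and 0.58. The 3 cells that lacked a core gene were kept in this, so that it does not show how the pairs stand without them.

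The oxidases kept different company. In ranks, Slc6a4 and Maob had the second highest rho of the 28 pairs, 0.51, although their r was 0.26 (0.27 without the 3 cells above). Slc6a4 and Maoa had a rho of -0.08. Maoa and Maob, neighbours on the X chromosome, had an r of -0.03 and a rho of -0.20, and their r was below 0 on 12 of 16 plates. Slc22a3 had its highest values with Slc18a2 (r = 0.22, rho = 0.28, above 0 on 15 of 16 plates) and was below 0 with Maob on 14 of 16 plates (r = -0.12, rho = -0.17). For Slc18a1 r was between -0.02 and 0.07 in all 7 pairs, which in counts this sparse is no finding.

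**Figure D5:**
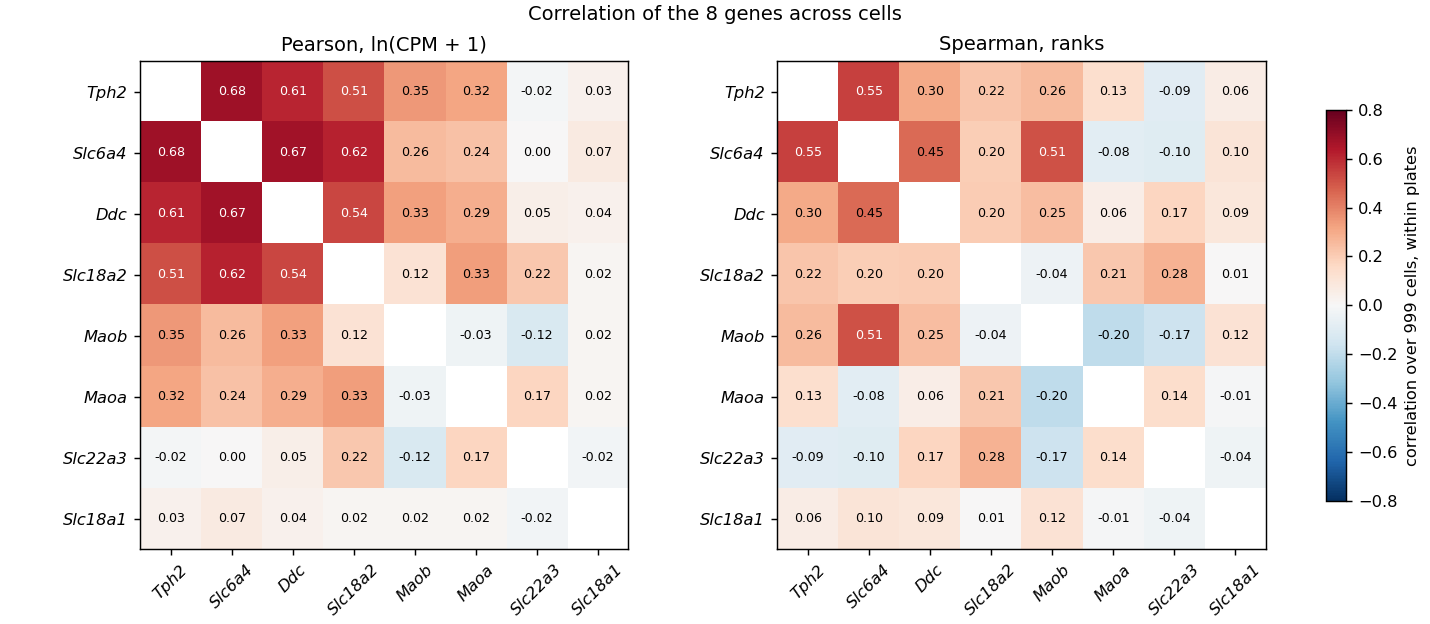
Correlation of each pair of the 8 genes over 999 cells within plates, as Pearson's r of ln(CPM+1) centred on plates (left) and Spearman's rho of ranks within plates (right), on a colour scale from -0.8 to 0.8. The block of Tph2, Slc6a4, Ddc and Slc18a2 stands out in the left panel (0.51 to 0.68), while in the right panel Slc6a4 pairs with Tph2 (0.55) and Maob (0.51) and Slc18a2 drops to 0.20 to 0.22 with the core genes.

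Among the 8086 other genes with a mean over 10 CPM, the closest to each member by the same r were often other members. For Tph2 they were Slc6a4 (0.68), Ddc (0.61) and Map1b (0.53), and for Ddc they were Slc6a4, Tph2 and Hprt (0.59). Slc6a4 was closest to Slc10a4 (r = 0.75, above 0 on 16 of 16 plates), which encodes a vesicular protein of monoamine and cholinergic neurons, ahead of Tph2 and Ddc. Slc18a2 was closest to Slc6a4, Hsph1 (0.60) and Rtn3 (0.55). Maob was closest to Ncald (0.44), a calcium sensor, Cpne7 (0.37) and Hs6st2 (0.36), and Maoa to Stx7 (0.40), Celf6 (0.36) and Idh1 (0.36). Slc22a3 had a single gene at 0.3 or more, Cpne4 (0.32, above 0 on 16 of 16 plates), with Gpc3 and Prkcq (0.29) just under it. The genes nearest to Slc18a1 (Ifi35, Pqlc2 and Qrsl1) had an r of 0.12 to 0.13. Without the 3 cells that lacked a core gene, the first gene was another one for 4 of the 8: Ncald for Ddc, Tph2 for Slc6a4, Prkcq for Slc18a2 and Celf6 for Maoa.

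Of 31 other genes around monoamine handling, 27 had a read in at least 3 cells and 12 averaged over 10 CPM. The list runs from cofactor synthesis (Gch1) through other transporters (such as Slc29a4) to enzymes that act on the products of the oxidases (aldehyde dehydrogenases and reductases). It also holds Fev, the tryptophan enzymes Ido1, Ido2 and Tdo2, and vesicle genes that are not particular to monoamines (Sv2a, Sv2b, Sv2c and Rab3a). Only Sv2b, a synaptic vesicle glycoprotein, passed the log2 ratio of 1 between dissections, higher in Principal DR (86.7 against 31.4 CPM, log2 ratio 1.44), with plate means of 74.3 to 97.9 and 19.3 to 41.4 CPM that did not overlap. None was lower by that much, where over all genes 1.54% were higher and 0.901% lower. Plate means did not overlap for 1 gene that was higher (Sv2b) and 2 that were lower in Principal DR. The lower ones were Aldh2 (38.5 against 58.6 CPM) and Akr1a1 (702.2 against 841.1 CPM). They encode an aldehyde dehydrogenase and an aldehyde reductase and were named after their values were seen. Of all genes 2.43% were higher and 2.54% lower without overlap, and of those over 10 CPM 5.08% and 6.52%. Counts this small are not read as a result about the list. The median log2 ratio of the list was 0.00, against 0.01 over all 25522 genes and 0.11 over the 8 members. Gch1, the first enzyme of the synthesis of the cofactor that Tph2 needs, had an r of 0.59 with Slc6a4, 0.53 with Slc18a2, 0.50 with Ddc and 0.35 with Tph2 within plates, while Fev had 0.29, 0.24, 0.21 and 0.05 in the same order. Both were singled out after their values were seen.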

How the data were processed

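Single-cell Smart-seq2 libraries were sequenced as 2 × 75-base reads. Per the labels and the submitters' processing notes, the authors used bcl2fastq 2.19.0.316, aligned to mm10 (GRCm38) with STAR 2.6.1a, counted reads per gene with HTSeq 0.11.2 and deposited CPM (reads per gene scaled to the cell's reads on genes, not log-transformed). Depth was 96834 to 2780443 reads per cell. All 9386862 values above 0 came out as whole reads within 0.001, so reads per cell are known. No count test was run on them, since each dissection is 1 sample and the labels tie no cell to an animal. All 999 columns were used (0 left out), and cells and doublets were not filtered further, since cells were sorted singly.

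Cells were grouped by dissection and plate from the labels. Ratios are log2 of mean CPM + 1. A member was called between dissections at a log2 ratio of at least 1, and in a marker contrast when its direction was the same on every plate with at least 5 cells per set. A cell was positive from 1 read. Correlations used ln(CPM+1) centred on plates. The functions were tested on simulated data. Levels per kb used exon lengths merged from GENCODE M21. Shares carry exact Clopper-Pearson 95% intervals. The members, marker lists and pathway list were chosen with earlier results of these data known. The genes named were the 8 members, the 3 closest to each by r, list genes past the ratio of 1 and the markers. Alternatives were another pseudocount, size factors, other minimums of reads and cells, thinning, other means, other correlations and leaving out each plate. Python 3.11.15, NumPy 2.4.6 and SciPy 1.17.1 were used.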

Additional observations from a re-analysis of the deposited data

Results flagged for a closer look

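Among 40 groups of 4 to 10 plates tested for a plate whose gap to the nearest other exceeded the 95% critical value of Dixon's test, 5 were picked out, where chance picks about 1 in 20. All were Principal DR plates, but sets of 11 All DR plates were too large to be tested, so that this does not set the dissections apart. Groups share plates and cells, so that 1 in 20 is only a rough guide. Slc18a2 averaged 2422 CPM on plate 25, below the 3258 to 3400 CPM of the other 4. In Trh-positive over Trh-negative cells the log2 ratio of Maob was 0.073 on plate 25, against 0.44 to 0.53 on the other 4, and that of Slc18a2 was 0.15 on plate 39, against 0.35 to 0.42. In Gad-positive over Gad-negative cells the ratio of Maob was -0.099 on plate 25, against 0.18 to 0.28, and that of Ddc was -0.083 on plate 39, against 0.06 to 0.12. Plate 25 held 43 cells and plate 39 held 28. No member went one way on all Principal DR plates and the other way on all All DR plates in a marker contrast.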

How the results depend on the processing

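No paired analysis was possible because the labels give no replicate number shared between dissections. Of 737 values under 17 alternatives other than leaving out a plate, 694 stayed within the limits set for each value and 43 moved; leaving out a plate moved 12 of 1392, and alternatives added after seeing the data moved 15 of 178 and turned 1. Causes were not tested. The value that turned was the log2 ratio of Tph2 between dissections, 0.0055 in cells with Gad alone.

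Members past the log2 ratio of 1 between dissections, 0 in the report, were 1 by medians over cells and 1 without plates 12 and 13 (Slc22a3 both times), 2 in cells with both Slc17a8 and Gad (Slc18a1 and Slc22a3), and 0 without any single plate. Members without overlap of plates, 2 in the report, were 1 with size factors (Maob) and 2 to 3 without single plates, the third being Slc22a3 without plate 55. Genes of the pathway list past the ratio, 1 in the report, were 2 with size factors, from 500000 reads, by medians, without Zeb2-positive cells, in cells with both markers and in cells with neither, 3 by the mean of plate means, without plates 12 and 13 and in cells with Gad alone, and 1 to 2 without single plates.

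Members with the same direction on every plate were, for Slc17a8, 0 to 1 without single plates (Slc22a3 without plate 55) and 6 with cells pooled in each dissection, and for Gad 0 and 4. Pooling leaves 1 ratio per dissection, so that at most 2 ratios have to agree. The share over all genes was not taken for it, and pooled counts are not read as a result. For Trh, 2 in the report, they were 1 with size factors (Maoa), 4 from 5 reads or 10 CPM of Trh, 6 on plates with 10 cells per set, 6 pooled and 2 to 4 without single plates (4 without plate 64). For Zeb2, 2 in the report, they were 1 from 10 CPM of Zeb2 (Slc22a3), 4 with 10 cells per set, 8 pooled, 1 without cells over 500 CPM of other cell types (Ddc) and 2 to 4 without single plates (4 without plate 52 or 56). With only 3 Zeb2-positive cells in Principal DR, the pooled setting had the All DR ratio alone, so that all 8 members counted by construction.

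Pairs with a correlation of at least 0.3, 10 in the report, were 6 from 500000 reads, 4 by ranks, 6 after removing reads and detected genes and 8 to 11 without single plates. The number of members whose closest gene stayed the same, of 8, was 4 with size factors, 4 with size factors of at least 0.5, 4 from 500000 reads, 2 by ranks, 5 without cells of other types, 4 without the 3 cells that lacked a core gene and 4 to 8 without single plates (4 without plate 55). The median share of variance between plates was 9.29% from 500000 reads and 4.28% to 6.66% without single plates. With size factors the median log2 ratio of genes over 10 CPM was 0.11, and relative to it Tph2 stood at -0.18, Slc22a3 at -0.20 and Maob at 0.74. Depth limits what can be said of Slc18a1, most of whose cells have no read.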
